A study of Mus musculus with 16 samples.

Results

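Aqp5 and Aqp1 are the genes of 2 aquaporins, and every probe assigned to either symbol was followed over the 8 conditions of the array experiment. These were 2 genes of the 16593 that the array's probes name, covered by 5 of its 25697 probes, 2 for Aqp5 and 3 for Aqp1. The arrays measured RNA of trabecular osteoblasts (TOs), primary cultures of bone-forming cells grown out of the trabecular bone of fetal mice on a C57BL/6 background, taken 1 day before birth. The sample labels name both the tibia and the femur as the bone, and the study's methods name the femur. Pthrp-/- TOs, which lack both alleles of Pthrp, which encodes parathyroid hormone-related protein (PTHrP), were set against Pthrp+/+ wild-type TOs. Each genotype was cultured on microcarriers for 6 days at 0g, in a rotating vessel that simulates microgravity, or at 1g, in agarose-coated plasticware that did not rotate, so that 0g and 1g cultures also differed in their vessel. Within each, cells were treated with the peptide PTHrP1-36 at 10 nM for 2 h per day or left untreated. There were 2 Illumina arrays for each of the 8 conditions and 16 in all. The null animals die around birth, and the ablation is of the whole body rather than of osteoblasts. The replicates are described only as duplicate experiments, so p-values cover only the spread of these arrays, which may be technical.

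Aquaporins are membrane channels that let water follow an osmotic gradient across a cell's membrane, and one branch of the family, the aquaglyceroporins, also passes glycerol. Aqp1 is the channel of red blood cells, of many capillary endothelia and of the proximal kidney tubule. Aqp5 is best known from the apical membrane of secretory gland cells and from the flat cells that line the alveoli. In the mouse genome Aqp5 lies between Aqp2, the vasopressin-regulated channel of the kidney collecting duct, and Aqp6, an intracellular channel.

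In the GRCm38.p6 assembly Aqp5 lies on chromosome 15 at 99591028 to 99594829, with 6482 bases between it and Aqp2 and 3638 bases between it and Aqp6. Aqp1 lies on chromosome 6 at 55336299 to 55348555. The promoters of both genes, from 250 bases before the annotated start to 50 after it, are shown because the genes differed between the same conditions in different ways. Both are on the forward strand, are taken from RefSeq and are written 5′ to 3′, with matches to 3 short motifs in capitals: GGGCGG (the GC box), CANNTG (the E box) and ACGTG (the core of a hypoxia response element), each searched on both strands.
Aqp5, chr15:99590778-99591077: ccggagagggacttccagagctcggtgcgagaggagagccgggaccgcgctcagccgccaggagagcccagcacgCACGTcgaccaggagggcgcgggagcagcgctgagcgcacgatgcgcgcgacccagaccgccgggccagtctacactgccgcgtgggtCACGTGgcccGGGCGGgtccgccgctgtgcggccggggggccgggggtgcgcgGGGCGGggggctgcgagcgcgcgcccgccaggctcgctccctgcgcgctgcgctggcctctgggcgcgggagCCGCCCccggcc
Aqp1, chr6:55336049-55336348: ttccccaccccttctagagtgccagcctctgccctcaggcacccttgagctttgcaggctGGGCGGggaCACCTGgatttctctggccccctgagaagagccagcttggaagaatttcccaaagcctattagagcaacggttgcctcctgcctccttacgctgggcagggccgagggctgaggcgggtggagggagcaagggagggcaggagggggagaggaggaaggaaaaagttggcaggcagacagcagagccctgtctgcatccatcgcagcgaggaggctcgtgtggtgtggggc
The Aqp5 window held 79.7% G and C and 46 CpG dinucleotides. The Aqp1 window held 62.7% G and C and 8 CpG dinucleotides, and the median G and C content over all promoters was 52.7%. GGGCGG matched 3 times in the Aqp5 promoter, with first bases at -77, -34 and 39 from the start (the last on the reverse strand), and once in the Aqp1 promoter, at -190; 35.7% of 32851 mouse promoters hold it. CANNTG matched once in each, at -87 in Aqp5 and at -181 in Aqp1, and is held by 72.3% of promoters. ACGTG matched only in Aqp5, at -175, -87 and -86; the last 2 matches overlap on opposite strands and fall within the E box at -87. It is held by 19.6% of promoters. Neither window held TGACGTCA (the full cAMP response element, in 1.79% of promoters), TGACG (20.8%), TATAAA (13.6%), TGANTCA (an AP-1 site, 7.81%) or TGGAAA (the core of NFAT-family sites, 21.4%). A match of letters shows no bound factor.

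Over the 16 arrays the median intensity was 60.6 to 70.3 and 12161 to 13560 probes were detected, that is, brighter than the array's negative control beads at a detection p under 0.05. Replicate arrays correlated at 0.989 to 0.997 in log2 intensity. No probe is assigned to Pthlh, the gene for PTHrP, so the genotype labels could not be checked on the targeted gene. Of 7 osteoblast markers with an assigned probe 3 to 5 were detected on each Pthrp-/- array and 5 or 6 on each Pthrp+/+ array. Their summed normalized intensities were 1860 to 3784 in Pthrp-/- and 2873 to 5343 in Pthrp+/+ TOs. Most of each sum came from Col1a1, with condition means of 10.61 to 12.15. Dmp1, an osteocyte gene, was detected on no array. The 10 macrophage markers with an assigned probe were all detected on every Pthrp+/+ array, and 3 or 4 of them on each Pthrp-/- array. The annotation used assigned no probe to Cd68 or Csf1r of that list. Over 15279 tested probes the 0g effect in Pthrp-/- TOs ran against that in Pthrp+/+ TOs, with r = -0.34 in untreated and -0.25 in treated cells, and r = -0.38 and -0.20 when untreated and treated pairs were crossed. Whether the 0g and 1g labels of 1 genotype were exchanged was not tested, and each 0g difference below stands as labelled.

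Both genes were chosen by the log2 differences measured in 3 comparisons, namely 0g against 1g in untreated Pthrp+/+ TOs, ablation in untreated cells at 1g, and PTHrP1-36 against no treatment in Pthrp+/+ TOs at 0g. Their values there are descriptions and carry no p-value, and neither do those of 6 other comparisons that share arrays with them. Tests are given for the 3 comparisons among the 8 arrays that played no part in the choice. The values are normalized log2 intensities, and differences are in log2 units with the standard error (SE) of the fit, with n = 2 arrays per condition.

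Aqp5 was bright in every Pthrp-/- culture and varied most widely among Pthrp+/+ cultures. On the lead probe, the brighter of the 2 (ILMN_3115472), the deposited intensity in Pthrp-/- TOs was 3564 and 3898 at 0g with PTHrP1-36, 2216 and 3504 at 0g untreated, 6711 and 7635 at 1g with PTHrP1-36, and 6236 and 7922 at 1g untreated. In Pthrp+/+ TOs it was 909 and 940 at 0g with PTHrP1-36, 3055 and 2166 at 0g untreated, 270 and 263 at 1g with PTHrP1-36, and 172 and 224 at 1g untreated. The Pthrp+/+ arrays at 1g were the dimmest of all, and the untreated Pthrp+/+ arrays at 0g reached into the range of the untreated Pthrp-/- arrays at 0g before normalization. After normalization the 8 condition means of Aqp5 lay between 12.72 ± 0.04 (SD, untreated Pthrp-/- at 1g) and 7.20 ± 0.12 (untreated Pthrp+/+ at 1g), a span of 5.53 or 46.1-fold.

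The order of the Aqp5 means was untreated Pthrp-/- at 1g (12.72), treated Pthrp-/- at 1g (12.70), treated Pthrp-/- at 0g (11.93), untreated Pthrp-/- at 0g (11.67), untreated Pthrp+/+ at 0g (11.22), treated Pthrp+/+ at 0g (9.75), treated Pthrp+/+ at 1g (7.67) and untreated Pthrp+/+ at 1g (7.20). The first pair differed by 0.02 and their arrays overlapped, and no other neighbours overlapped. The second Aqp5 probe (ILMN_1259982) gave the same order over a span of 5.84. It was detected on all 16 arrays (highest detection p 0.0376) and followed the lead probe with r = 0.9998 over the 8 condition means.

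**Figure D1:**
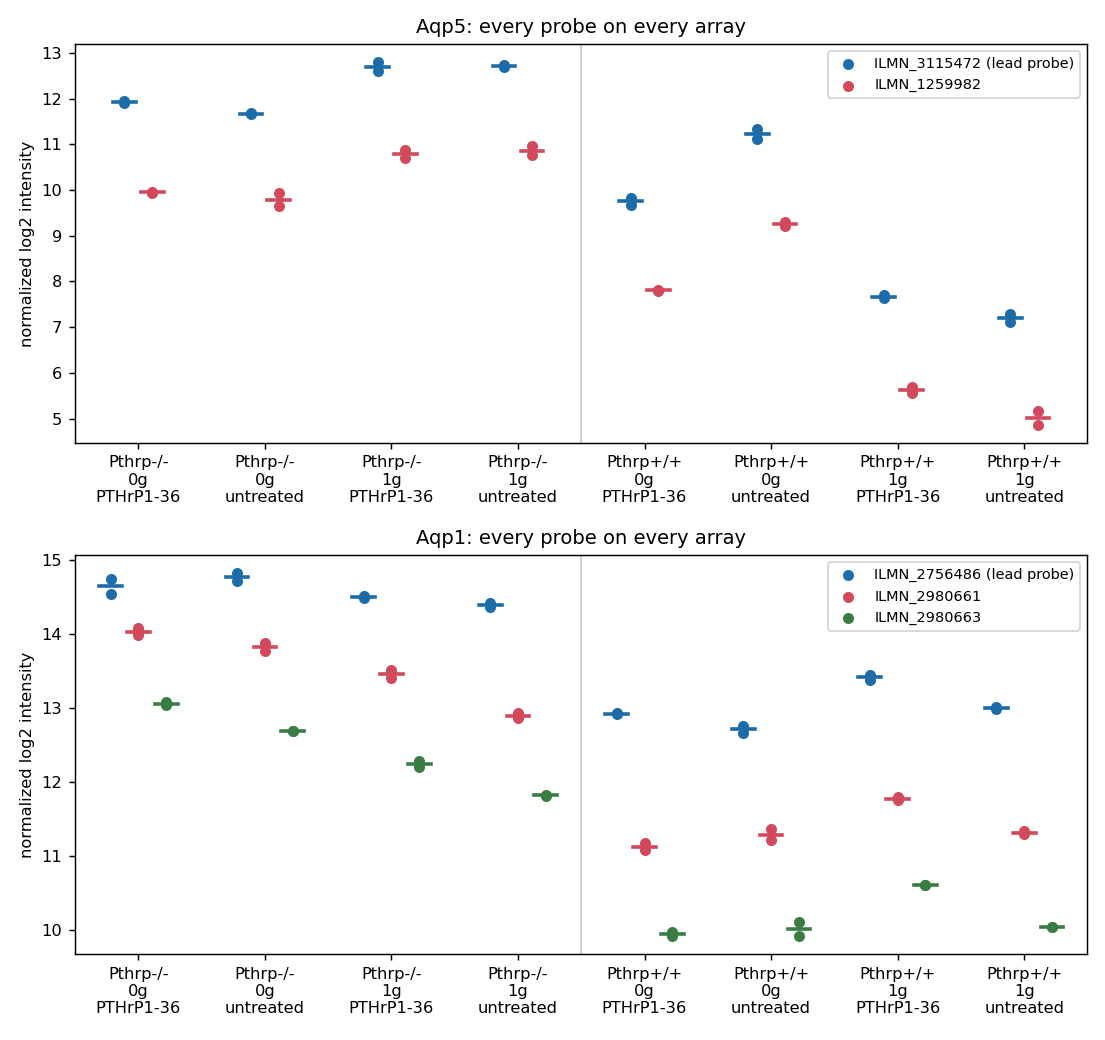
Normalized log2 intensity of each probe of Aqp5 (top) and Aqp1 (bottom) on each of the 16 arrays, by condition; points are arrays, short lines are condition means, and the grey line separates Pthrp-/- from Pthrp+/+. Lead-probe Aqp5 means run between 12.72 and 7.20, with the lowest in Pthrp+/+ TOs at 1g; every Aqp1 probe is brighter on all Pthrp-/- than on all Pthrp+/+ arrays, as 10.7% of all tested probes are.

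Ablation at 1g gave the largest Aqp5 differences of the 12 comparisons. In treated TOs at 1g, whose arrays had no part in the choice of the gene, the lead probe read 12.60 and 12.80 in Pthrp-/- and 7.71 and 7.63 in Pthrp+/+ cells, a rise of 5.03 ± 0.11 (32.8-fold, adjusted p = 5.93e-13, limma). The second probe rose by 5.17 ± 0.13 (adjusted p = 1.46e-12). All 3 Aqp1 probes rose in the same comparison, so 5 of 5 probes were called higher, where 28.4% of all tested probes were. The 5 probes are of 2 genes chosen partly on ablation in untreated cells at 1g, so this count is no separate evidence. In the untreated cells at 1g that had chosen the genes, Aqp5 read 12.70 and 12.75 in Pthrp-/- and 7.11 and 7.28 in Pthrp+/+ TOs, a difference of 5.53 ± 0.11, with 5.84 ± 0.13 on the second probe. The authors' normalized values gave 4.68 and 3.26 on the 2 probes, and 4.42 and 3.12 in treated cells at 1g. At 0g the Aqp5 difference of Pthrp-/- over Pthrp+/+ TOs was 2.18 ± 0.11 with PTHrP1-36 and 0.45 ± 0.11 without. The Pthrp-/- arrays lay above the Pthrp+/+ arrays on both probes in all 4 settings. Of all tested probes 45.1% did so in treated and 45.8% in untreated TOs at 1g, and 42.9% and 31.1% at 0g.

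The difference between 0g and 1g had opposite signs in the 2 genotypes. In treated Pthrp-/- TOs, the pair tested, Aqp5 read 11.95 and 11.91 at 0g and 12.60 and 12.80 at 1g. It fell by 0.77 ± 0.11 (1.71-fold lower, adjusted p = 0.000692) on the lead probe and by 0.85 ± 0.13 (adjusted p = 0.00102) on the second, where 3.72% of all tested probes were called lower. Untreated Pthrp-/- TOs read 11.68 and 11.67 at 0g and 12.70 and 12.75 at 1g, a difference of -1.05 ± 0.11. In untreated Pthrp+/+ TOs, where the gene was chosen, Aqp5 read 11.33 and 11.11 at 0g and 7.11 and 7.28 at 1g, a difference of 4.03 ± 0.11 or 16.3-fold, with 4.24 ± 0.13 on the second probe. The authors' normalized values gave 3.16 and 1.78 on these probes. Treated Pthrp+/+ TOs read 9.68 and 9.82 at 0g and 7.71 and 7.63 at 1g, a difference of 2.09 ± 0.11. On neither probe did 0g and 1g arrays overlap in these 4 comparisons. Of all tested probes 28.2% were lower at 0g without overlap in treated and 23.8% in untreated Pthrp-/- TOs, and 30.9% and 31.8% were higher in treated and untreated Pthrp+/+ TOs.

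Of 4 settings, Aqp5 was lower with PTHrP1-36 on arrays that did not overlap in 1, Pthrp+/+ TOs at 0g. In Pthrp-/- TOs at 0g, the pair tested, Aqp5 read 11.95 and 11.91 with the peptide and 11.68 and 11.67 without it, and the difference of 0.26 ± 0.11 did not pass (adjusted p = 0.269). The second probe gave 0.16 ± 0.13 (adjusted p = 0.595). In this comparison 0 of the 5 probes were called, where 1.02% of all tested probes were called higher and 0.962% lower. At 1g treated and untreated Pthrp-/- arrays overlapped, with a difference of -0.02 ± 0.11. In Pthrp+/+ TOs at 0g, where the gene was chosen, Aqp5 read 9.68 and 9.82 with the peptide and 11.33 and 11.11 without it, a difference of -1.47 ± 0.11, and 26.6% of all tested probes were lower without overlap. At 1g the Pthrp+/+ difference ran the other way, at 0.47 ± 0.11, where 25.1% of all probes were higher without overlap. Treated Pthrp+/+ TOs at 0g stayed above the 1g cells, by the 2.09 given above.

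**Figure D2:**
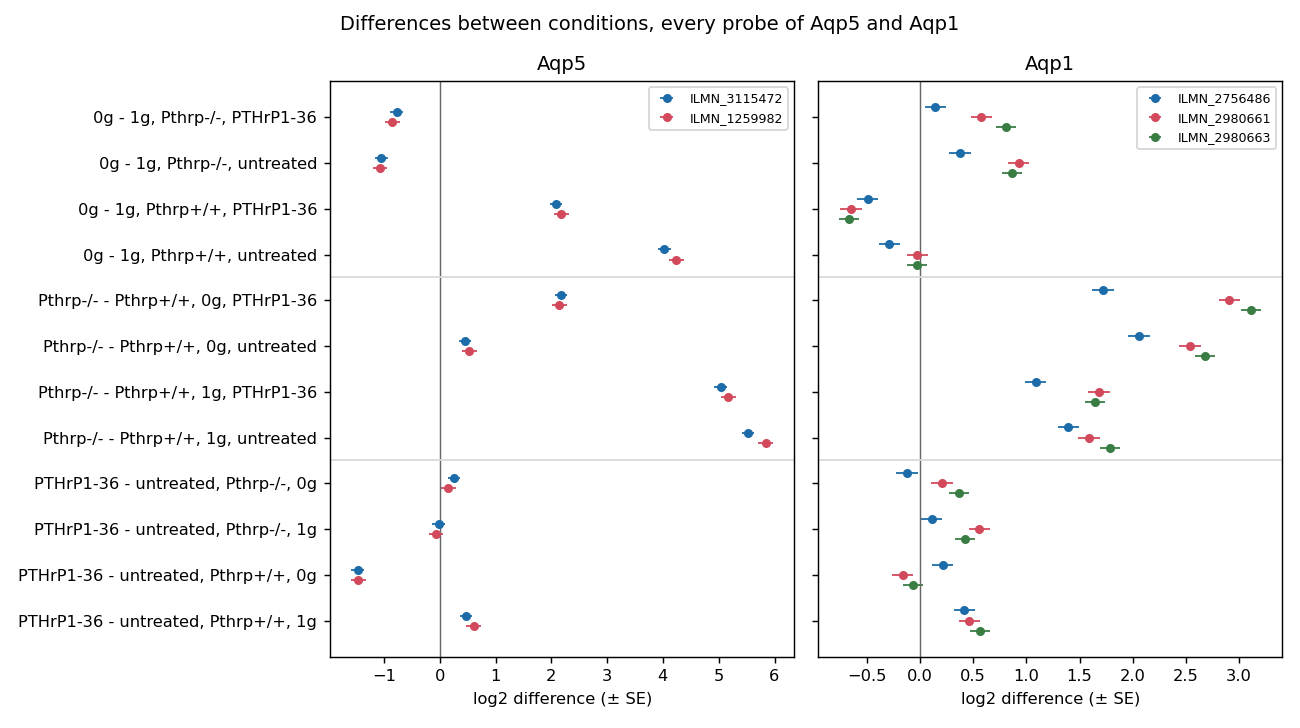
Log2 difference (± SE of the fit, n = 2 arrays per condition) of each probe of Aqp5 (left) and Aqp1 (right) in 12 comparisons, each with the first-named condition minus the second; the vertical line marks no difference. Aqp5 spans -1.47 to 5.53 on its lead probe, Aqp1 lies above 0 in all 4 ablation comparisons, and the lead-probe 0g differences of both genes have opposite signs in the 2 genotypes.

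Aqp1 was bright on all arrays and brighter in every Pthrp-/- culture. The lead probe (ILMN_2756486) had intensities of 19471 to 26160 with a median of 24259 on the 8 Pthrp-/- arrays, and of 6843 to 11760 with a median of 8048 on the 8 Pthrp+/+ arrays. The brightest spot on each array was 36048 to 41181. The other probes read 7150 to 17533 (ILMN_2980661) and 3376 to 8736 (ILMN_2980663) in Pthrp-/- TOs, against 2241 to 3966 and 952 to 1742 in Pthrp+/+ TOs. All 8 Pthrp-/- arrays lay above all 8 Pthrp+/+ arrays on each of the 3 probes, as they did on 10.7% of all tested probes, and all 3 were detected on all 16 arrays.

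The order of the Aqp1 lead-probe means was untreated Pthrp-/- at 0g (14.77), treated Pthrp-/- at 0g (14.65), treated Pthrp-/- at 1g (14.51), untreated Pthrp-/- at 1g (14.40), treated Pthrp+/+ at 1g (13.42), untreated Pthrp+/+ at 1g (13.00), treated Pthrp+/+ at 0g (12.93) and untreated Pthrp+/+ at 0g (12.71). The first pair overlapped, and the span was 2.06 or 4.16-fold. On the other 2 probes treated Pthrp-/- cells at 0g were highest and treated Pthrp+/+ cells at 0g lowest, with spans of 2.91 and 3.11. These probes followed the lead probe with r = 0.978 each over the 8 means. The 3 probes thus disagree on the order of treated and untreated cells at 0g.

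In treated TOs at 1g the Aqp1 lead probe read 14.52 and 14.49 in Pthrp-/- and 13.45 and 13.39 in Pthrp+/+ cells. It rose by 1.09 ± 0.10 (2.13-fold, adjusted p = 7.93e-07), and the other probes by 1.68 ± 0.10 (adjusted p = 8.65e-09) and 1.64 ± 0.09 (adjusted p = 6.17e-09). In the untreated cells at 1g that had chosen the gene, the 3 probes differed by 1.39, 1.59 and 1.78. At 0g the differences between genotypes were wider, at 1.72, 2.91 and 3.11 with PTHrP1-36 and 2.06, 2.54 and 2.68 without. Aqp5 had its smallest differences between genotypes at 0g, and Aqp1 its largest, on each of its 3 probes; the change with gravity was not tested.

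At 0g against 1g in treated Pthrp-/- TOs, the Aqp1 lead probe read 14.75 and 14.55 at 0g and 14.52 and 14.49 at 1g. The difference of 0.14 ± 0.10 did not pass (adjusted p = 0.458), while the other probes rose by 0.58 ± 0.10 (adjusted p = 0.0024) and 0.81 ± 0.09 (adjusted p = 9.59e-05), where 4.52% of all tested probes were called higher. Untreated Pthrp-/- TOs gave differences of 0.38, 0.93 and 0.86 on the 3 probes. The 3 probes were higher without overlap in both, as were 26.9% of all tested probes in treated and 21.8% in untreated Pthrp-/- TOs. In Pthrp+/+ TOs with PTHrP1-36 the 3 probes were lower at 0g without overlap, with differences of -0.49, -0.65 and -0.66, where 26.8% of all probes were lower. Without it the lead probe gave -0.29 ± 0.10, and the other probes gave -0.02 and -0.03 with overlapping arrays. The call at 0g in Pthrp-/- TOs therefore depended on the probe.

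PTHrP1-36 left Aqp1 with small differences whose sign varied among probes at 0g. In Pthrp-/- TOs at 0g the probes gave -0.12 ± 0.10 (adjusted p = 0.575), 0.21 ± 0.10 (adjusted p = 0.312) and 0.37 ± 0.09 (adjusted p = 0.0634), and none passed. In Pthrp+/+ TOs at 0g they gave 0.21, -0.16 and -0.07. At 1g all 3 were above 0 in both genotypes without overlap, with 0.11, 0.56 and 0.43 in Pthrp-/- and 0.42, 0.46 and 0.57 in Pthrp+/+ TOs, and 24.7% of all tested probes in Pthrp-/- and 25.1% in Pthrp+/+ TOs were so. Over the 8 condition means the lead probes of Aqp5 and Aqp1 correlated at r = 0.67, a description over points that share arrays and genotype. Within each genotype r was negative, at -0.96 over the 4 Pthrp-/- means and -0.75 over the 4 Pthrp+/+ means.

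Of the 10 other aquaporins on the array, with 15 probes, only Aqp9 was detected throughout a genotype. Aqp9 encodes an aquaglyceroporin known from liver and from leukocytes. It was dim, with intensities of 48.2 to 57.6 on the 8 Pthrp-/- arrays, none of which detected it, and of 74.3 to 117 on the 8 Pthrp+/+ arrays, all of which did. At 1g it was at least 2.29-fold lower in Pthrp-/- than in Pthrp+/+ TOs with PTHrP1-36 and at least 2.10-fold lower without. Each bound was set against the lowest level that counts as detected. At 0g it was at least 1.5-fold lower with PTHrP1-36 and at least 1.15-fold lower without. Aqp9 was tested only because Pthrp+/+ arrays detected it, so no p-value is given for these differences between genotypes.

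Aqp9 fell by 0.86 ± 0.11 at 0g in untreated Pthrp+/+ TOs (adjusted p = 5.36e-05), in which it read 5.05 and 5.31 at 0g and 6.06 and 6.02 at 1g. It fell by 0.58 ± 0.11 at 0g in treated Pthrp+/+ TOs (adjusted p = 0.00417). With PTHrP1-36 at 0g it gave 0.35 ± 0.11 in Pthrp+/+ TOs and did not pass (adjusted p = 0.0699). Where Aqp5 was higher at 0g in Pthrp+/+ TOs, Aqp9 was lower.

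The other 9 aquaporins stayed between intensities of 35.2 and 73.4 on 14 probes. Aqp2, the neighbour of Aqp5 and the collecting duct channel, was detected on 3 of 16 arrays, and Aqp6, its other neighbour, on 0. Aqp3, a glycerol and water channel of skin and kidney, was detected on 5 arrays, Aqp11, an intracellular channel, on 6 by 1 of its probes, and Aqp8 on 6 by 1 of its probes. Aqp8 was called in 1 of the 12 comparisons, at least 1.15-fold higher in treated Pthrp-/- than in treated Pthrp+/+ TOs at 0g (adjusted p = 0.0398), with 1 Pthrp-/- array detected against 0 Pthrp+/+ arrays. Mip, the lens channel, was detected on 1 array, and Aqp4, Aqp7 and Aqp12 on 0.

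**Figure D3:**
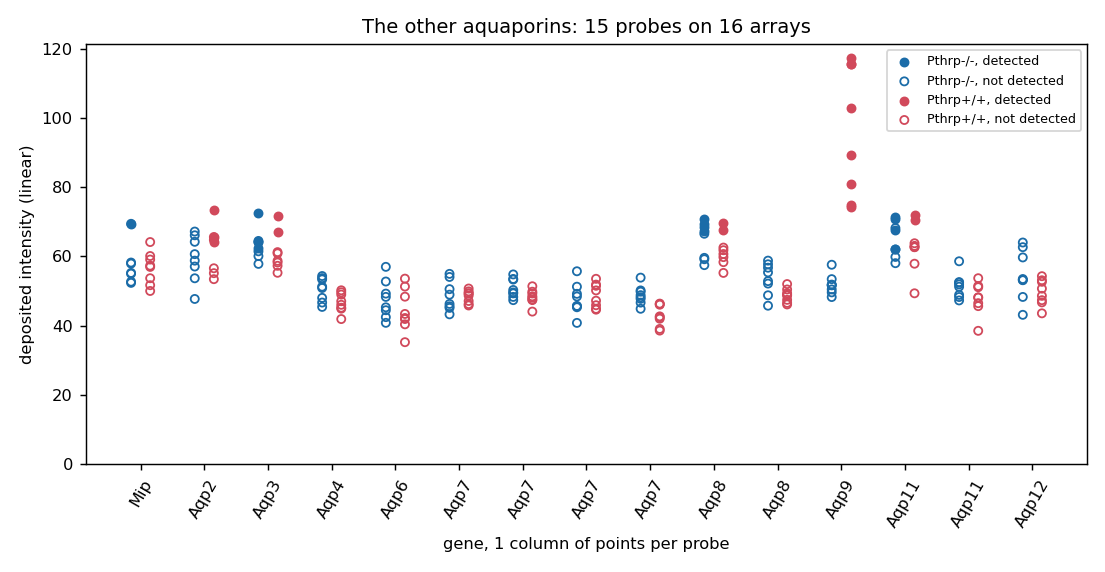
Deposited intensity (linear scale) of the 15 probes of the 10 other aquaporins on each array, Pthrp-/- left of Pthrp+/+ in each column, filled where the probe was detected. Aqp9 stands apart on the Pthrp+/+ arrays at 74.3 to 117; all other probes lie between 35.2 and 73.4.

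Markers of several cell types differed between the same conditions, in directions that varied within some lists. The summed normalized intensity of the macrophage list was 392 to 597 on the Pthrp-/- arrays, against 55387 to 89171 on the Pthrp+/+ arrays. Among Pthrp+/+ cultures it was 69135 and 71457 at 0g with PTHrP1-36, 55387 and 56233 at 0g untreated, 78711 and 82265 at 1g with PTHrP1-36 and 87221 and 89171 at 1g untreated. It was thus lowest at 0g and highest at 1g in untreated cells, the reverse of the order of Aqp5. All 10 macrophage markers were called lower with ablation at 1g in treated and in untreated cells and at 0g in untreated Pthrp+/+ TOs, and 6 were called higher with PTHrP1-36 in Pthrp+/+ TOs at 0g. Of all tested genes, 33% were called higher and 22.9% lower with ablation in untreated TOs at 1g. At 0g in untreated Pthrp+/+ TOs these shares were 14.3% and 14.2%, and with PTHrP1-36 in Pthrp+/+ TOs at 0g 5.37% and 3.61%. With ablation in treated TOs at 1g, 5632 of 10438 genes were called in either direction. Of 5 tested smooth muscle and pericyte markers, 5 were called higher at 0g in untreated Pthrp+/+ TOs, 2 (Des and Pdgfrb) lower with PTHrP1-36 there, and 3 (Cspg4, Des and Pdgfrb) higher and 2 (Acta2 and Myh11) lower with ablation in untreated TOs at 1g. At 0g in untreated Pthrp-/- TOs, Acta2, Myh11 and Pdgfrb were called higher too, while Des was called lower. Des read 8.41 in untreated Pthrp-/- TOs at 1g, and 7.64 with PTHrP1-36 and 8.32 without it in Pthrp+/+ TOs at 0g, against 6.52 in untreated Pthrp+/+ TOs at 1g. The summed level of this list was 35408 to 39437 in Pthrp-/- and 32067 to 38297 in Pthrp+/+ TOs. Most of that sum came from the brightest Acta2 probe, with condition means of 14.96 to 15.15, so it hardly reflects the other members. With ablation in untreated TOs at 1g, 4 of 6 tested osteoblast markers and 2 of 3 adipocyte markers were called lower. At 0g in untreated Pthrp+/+ TOs, Alpl and Ibsp of the osteoblast list were called lower and Sp7 of that list higher. Pparg and Adipoq of the adipocyte list were called lower there too. Col2a1 of the chondrocyte list was called higher there and with ablation in untreated TOs at 1g, while Comp and Sox9 were called lower at 0g. Krt7 of the epithelial list, detected on 15 arrays, was called higher at 0g in untreated Pthrp+/+ TOs and with ablation at 1g, with 6.31 in Pthrp-/- TOs at 1g and 5.83 in Pthrp+/+ TOs at 0g, against 4.79 in Pthrp+/+ TOs at 1g, all untreated. Esam of the endothelial list, detected on all 16 arrays, was called higher in the same comparisons. Tek of that list, detected on 10 arrays, was called lower at 0g in untreated Pthrp+/+ TOs and with ablation in untreated TOs at 1g. In the latter comparison Egfl7 of the endothelial list was called higher and Ager of the epithelial list lower. Slc4a1 of the erythroid list, detected on 2 arrays, was called higher there, with 5.02 in Pthrp-/- and 4.50 in Pthrp+/+ TOs. The part of these markers in the Aqp5, Aqp1 and Aqp9 results was not tested, and in bulk samples fewer cells of a type cannot be told apart from less RNA per cell. Pecam1, Cdh5, Tie1 and Emcn of the endothelial list, Hba-a1 and Alas2 of the erythroid list, and Krt18, Krt19, Sftpc, Cldn4 and Cldn18 of the epithelial list were not detected on any array. Other members were detected on some arrays. Among them were Rhag and Epor of the erythroid list on 5 each and Klf1 on 4, and Cdh1 of the epithelial list on 11 and Krt8 and Foxa1 on 6 each. The summed level of the epithelial list was 284 to 350 in Pthrp-/- and 285 to 323 in Pthrp+/+ TOs, of the endothelial list 447 to 596 and 459 to 546, and of the erythroid list 153 to 160 and 134 to 157.

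**Figure D4:**
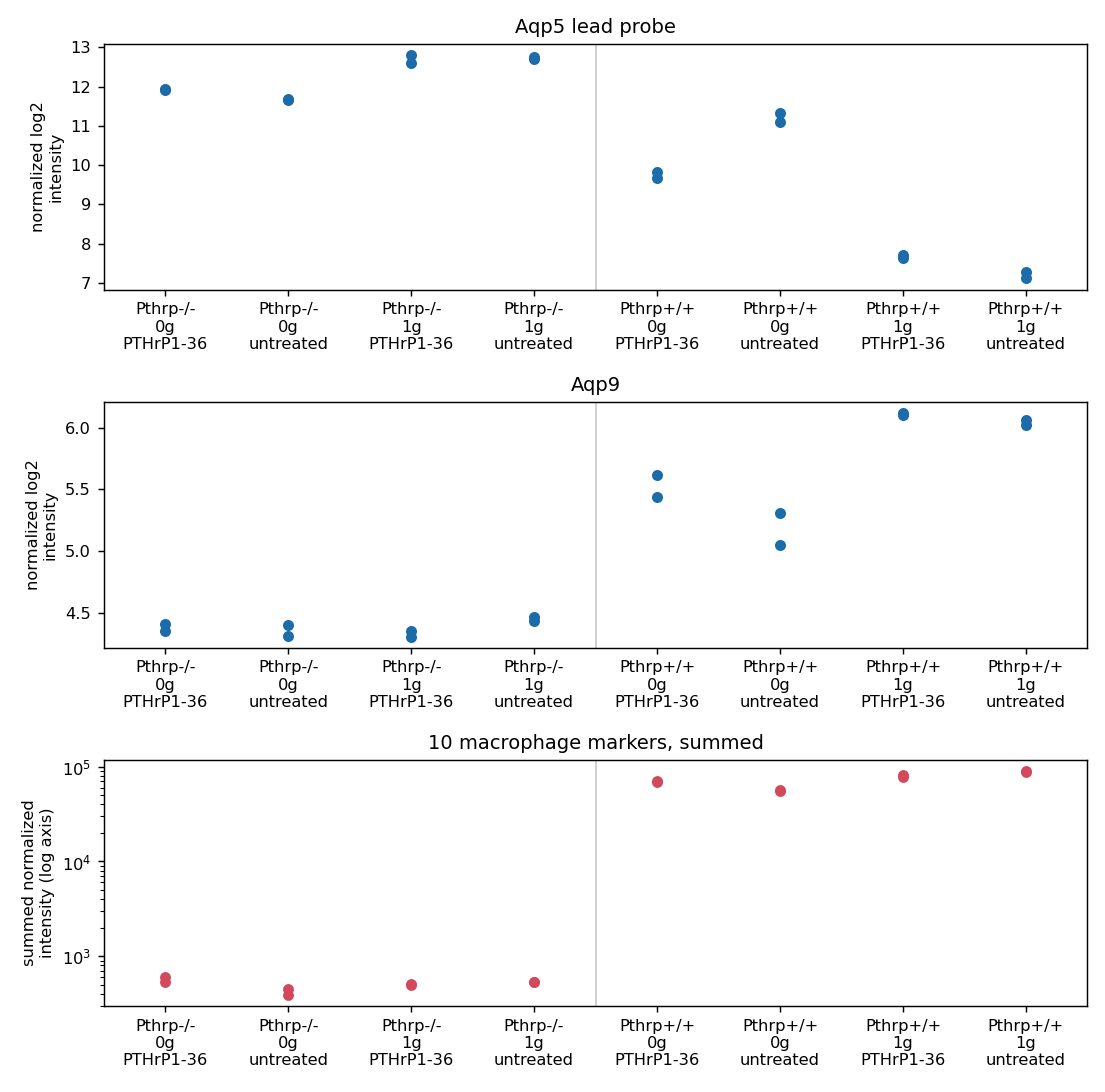
Normalized log2 intensity of the Aqp5 lead probe (top) and of Aqp9 (middle), and the summed normalized intensity of 10 macrophage markers (bottom, log axis), each point an array. The marker sum is 392 to 597 in Pthrp-/- and 55387 to 89171 in Pthrp+/+ TOs; among Pthrp+/+ conditions its order is the reverse of that of Aqp5.

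Genes of cell volume control, the ion channels, cotransporters and kinases that work beside water channels, were counted from a list of 28, of which 18 were tested. With ablation in untreated TOs at 1g, 10 were higher and 4 lower, where 33% and 22.9% of all tested genes were. The median difference over the list, from the brightest tested probe of each gene, was 0.44. Over all tested probes, which include dimmer and duplicate probes of a gene, it was 0.12, so the medians are not like for like. At 0g in untreated Pthrp+/+ TOs, 1 was higher and 5 were lower, against 14.3% and 14.2% of all genes. With PTHrP1-36 in Pthrp+/+ TOs at 0g, 0 of 18 were called, where 5.37% of all genes were higher and 3.61% lower. The largest differences of the list are given for these comparisons without a p-value, since size chose them. Ano1, a calcium-activated chloride channel, differed by 2.86 ± 0.14 with ablation and 0.09 ± 0.14 at 0g. Trpv2, a cation channel also known from macrophages, differed by -2.06 ± 0.12 and -0.40 ± 0.12. Atp1b1, a subunit of the sodium pump, differed by 0.97 ± 0.11 and -1.19 ± 0.11. Clcn3, a chloride and proton exchanger, differed by -1.04 ± 0.13 and -0.69 ± 0.13.

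A list of 9 genes of the response to hypertonicity had 7 tested members. Of these 3 were higher and 0 lower with ablation in untreated TOs at 1g, where 33% and 22.9% of all tested genes were. At 0g in untreated Pthrp+/+ TOs 2 were higher and 0 lower, against 14.3% and 14.2% of all genes, and with PTHrP1-36 in Pthrp+/+ TOs at 0g 0 were higher and 1 lower, against 5.37% and 3.61%. Sgk1, a kinase that salt and steroid hormones induce, differed by 1.18 ± 0.11, 1.06 ± 0.11 and -0.53 ± 0.11 in these comparisons. Slc6a12, the betaine transporter, differed by 1.01 ± 0.16, 0.61 ± 0.16 and -0.14 ± 0.16. Hspa4l, a heat shock protein, differed by 0.63 ± 0.25, 0.24 ± 0.25 and -0.13 ± 0.25.

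Genes were also ranked by the Pearson correlation of their 8 condition means with those of the lead probe. The ranking covered 1680 genes whose means vary by an SD of at least 0.5. The 6 most like Aqp5 were Gstp1 (r = 0.998), a glutathione transferase, Clba1 (0.997), the histone H2B genes H2bc14 (0.996), H2bc6 (0.996) and H2bc12 (0.995), and Inhba (0.995), the activin A subunit. The H2B genes are near-identical copies, and their probes may share signal. The 6 most like Aqp1 were Col4a5 (0.984), a basement membrane collagen, Itgbl1 (0.983), Pam (0.978), which amidates secreted peptides, Rassf7 (0.978), Mdga2 (0.978) and Cuedc1 (0.976). The points share arrays and a wide difference between genotypes, and the values are descriptions over n = 8 means. The correlation ignores the size of a change. Gstp1 means ran between 11.5 and 12.86, where those of the lead Aqp5 probe ran between 7.20 and 12.72.

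**Figure D5:**
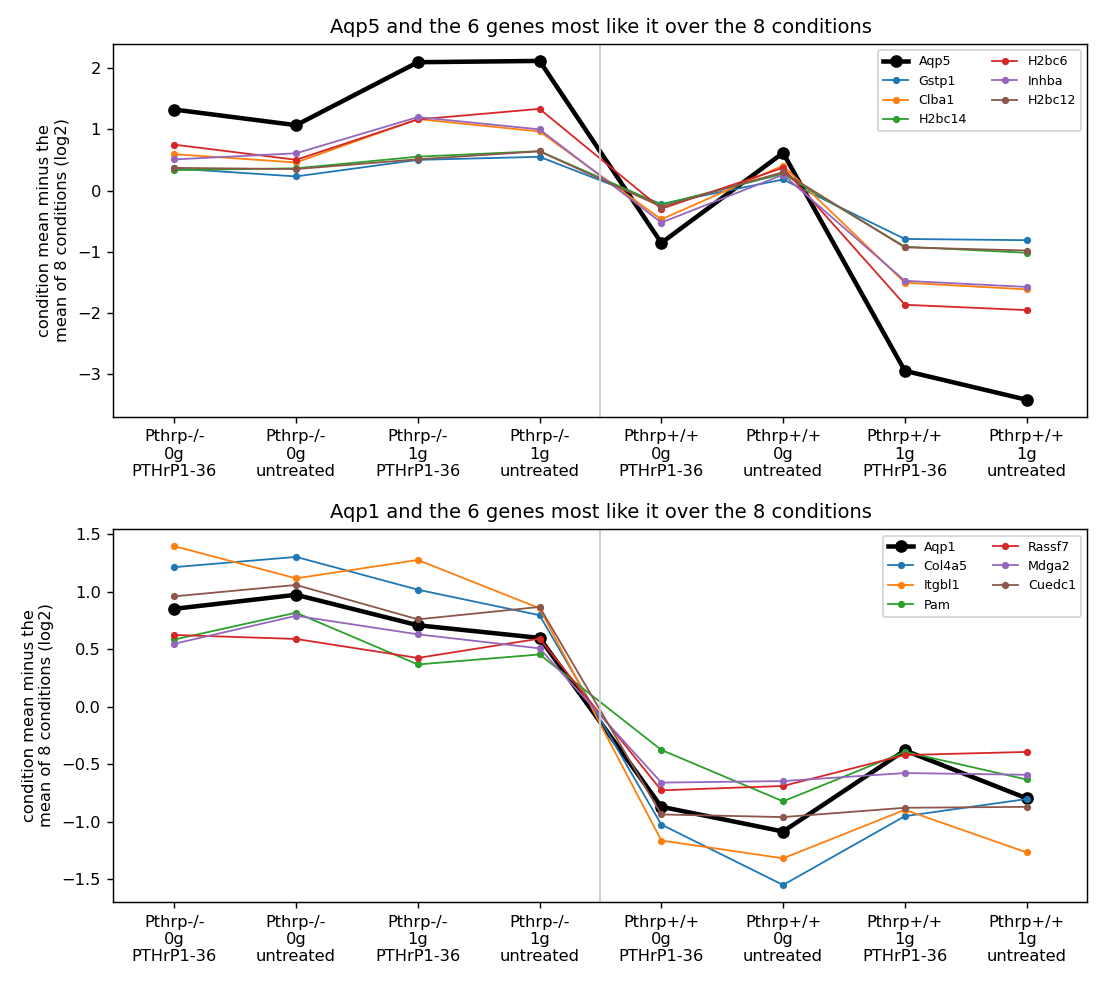
Condition means of the lead probes of Aqp5 (top) and Aqp1 (bottom, black) and of the 6 genes most like each, as log2 intensity minus the mean of the 8 conditions. The genes most like Aqp5 are lowest in Pthrp+/+ TOs at 1g, with r between 0.995 and 0.998 over the 8 means; those most like Aqp1 separate the genotypes, with r between 0.976 and 0.984.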

How the data were processed

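RNA of 16 TO cultures, 2 per condition, was measured on Illumina mouse arrays. The deposited intensity values are bead summaries on a linear scale with no normalization between arrays, each with a detection p-value that the authors deposited beside it, computed against negative control beads. The authors' normalized values, made with lumi, are on a log2 scale and served as an alternative. The number of arrays limits the precision. Intensities were background-corrected with neqc (limma 3.58.1, R 4.3.3; detection p, offset 16), quantile-normalized and log2-transformed. Probes with a detection p under 0.05 on at least 2 arrays were tested (15279 probes, 10438 genes), with 1 fit of 8 condition means (lmFit, eBayes, 8 residual degrees of freedom) and Benjamini-Hochberg adjustment over all tested probes; a gene was called where any of its probes passed 0.05. The script was tested on simulated data.

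The 2 genes and all gene lists were chosen with earlier results of these data known. Text names all probes of Aqp5 and Aqp1, all other aquaporins, the 6 genes most like each lead probe (highest mean log2), and up to 4 members per list with the largest mean absolute difference in the 3 choosing comparisons among those called in at least 1 of them; names outside this rule are cell type markers. Symbols came from the platform annotation, updated by gene number; 23978 of 25697 probes had 1 symbol and 1719 none. Promoters are RefSeq sequences of GRCm38.p6. Alternatives were another background correction, normalization, filter, probe, model or set of arrays, a replicate block, and leaving out each array in turn. No source names replicates that shared a run or slide, so the fit had no pairing and no block for the slide. No columns of the authors' comparisons were used. Figures were drawn with matplotlib 3.10.9 and tables read with pandas 2.3.3.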

Additional observations from a re-analysis of the deposited data

Results flagged for a closer look

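In each of the following results the arrays of the first pair all moved one way and those of the second pair all moved the other; in no case was the difference between the effects tested. The same pattern, in either direction, held for 20.4% of all tested probes for 0g in the 2 genotypes untreated and 21.3% treated, for 9.29% for PTHrP1-36 in Pthrp+/+ TOs at 0g and 1g, and for 7.9% for PTHrP1-36 at 0g in the 2 genotypes; over all probes the 0g effects of the genotypes ran opposite (r = -0.34 untreated, -0.25 treated). The Aqp5 lead probe differed between 0g and 1g by -1.05 in untreated Pthrp-/- TOs and by 4.03 in untreated Pthrp+/+ TOs, so that the Pthrp+/+ effect exceeded the Pthrp-/- effect by 5.07. In treated TOs the same differences were -0.77 in Pthrp-/- and 2.09 in Pthrp+/+, which are 2.86 apart. The Aqp1 lead probe differed between 0g and 1g by 0.38 in untreated Pthrp-/- and -0.29 in untreated Pthrp+/+ TOs, so that the Pthrp+/+ effect minus the Pthrp-/- effect was -0.66; on the other 2 Aqp1 probes the untreated Pthrp+/+ arrays at 0g and 1g overlapped. In treated TOs these differences were 0.14 and -0.49, and the effects differed by -0.63. PTHrP1-36 gave an Aqp5 difference of -1.47 at 0g and 0.47 at 1g in Pthrp+/+ TOs, and the 0g effect minus the 1g effect was -1.94. At 0g it gave 0.26 in Pthrp-/- and -1.47 in Pthrp+/+ TOs, and the Pthrp+/+ effect minus the Pthrp-/- effect was -1.72.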

How the results depend on the processing

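Of the alternatives tried, 282 values stayed on the same side of the threshold, or within the spread, 48 moved, 5 reversed and 2 gained a call, over all settings, arrays left out included. All 3 tested results of Aqp5 kept their side under all 14 alternatives (adjusted p 9.97e-18 to 4.7e-07 for ablation in treated cells at 1g, 3.88e-05 to 0.0252 for 0g in treated Pthrp-/- TOs, and 0.114 to 0.595 for PTHrP1-36 in Pthrp-/- TOs at 0g). Aqp1 kept its ablation call under all 15 (6.17e-09 to 0.000155) and no call for PTHrP1-36 under all 15 (0.0634 to 0.963), while 0g in treated Pthrp-/- TOs was called under 2 of 15, its other probes (9.59e-05 to 0.914). No probe of either gene changed direction in any of the 12 comparisons under another background correction, normalization or the authors' values; ablation moved the median of all probes by 0.118 at 1g, and cyclic loess by -0.01.

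The size of the Aqp5 difference at 0g in untreated Pthrp+/+ TOs was 3.73 without background correction, 3.79 with loess, 3.16 from the authors' values, 4.24 on the other probe and 1.49 with genotypes pooled; for ablation at 1g these were 5.21, 5.29, 4.68, 5.84 and, with gravities pooled, 2.99. The Aqp1 ablation difference was 1.22 with loess, 1.59 and 1.78 on the other probes and 1.73 pooled. Its 0g difference was -0.0233 and -0.0297 on the other probes and reversed to 0.0435 pooled. The sign reversed on the other Aqp1 probes for PTHrP1-36 at 0g, at -0.16 and -0.0692 in Pthrp+/+ and 0.21 and 0.37 in Pthrp-/- TOs, and its 0g difference in treated Pthrp-/- TOs gained a call at 0.58 and 0.81. The causes were not tested.

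For PTHrP1-36 in Pthrp+/+ TOs at 0g, 1 gene of the volume list was called without background correction, with loess and with the replicate block within genotype, and 0 of the hypertonicity list in a fit to the 4 arrays compared. From the authors' values 1 hypertonicity gene was called at 0g, and 465 genes for PTHrP1-36 in Pthrp-/- TOs at 0g, where 264 were in the fit reported. A fit to the 4 arrays compared, with fewer residual degrees of freedom, called 284 genes for PTHrP1-36 in Pthrp+/+ TOs at 0g (938 otherwise), 639 for 0g in treated Pthrp-/- TOs (1018) and 1 for PTHrP1-36 in Pthrp-/- TOs at 0g (264).

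Leaving out each array in turn gave Aqp5 differences of 3.91 to 4.14 at 0g in untreated Pthrp+/+ TOs and -1.58 to -1.36 for PTHrP1-36 at 0g. Counts ranged over 555 to 689 genes for 0g in treated Pthrp-/- TOs, 44 to 1342 for PTHrP1-36 in Pthrp-/- TOs at 0g and 276 to 1448 in Pthrp+/+ TOs at 0g; the highest of the last 2 came without untreated replicate 2 at 0g of that genotype. For the volume list they were 3 to 6 at 0g (3 without untreated Pthrp+/+ replicate 1 at 1g) and 0 to 2 for PTHrP1-36. For the hypertonicity list they were 1 to 2 at 0g and 0 to 3 for PTHrP1-36, and for other aquaporins 0 to 1 for PTHrP1-36. A setting that leaves 1 array in a condition assumes that it varies like the other conditions.

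No source pairs the replicate numbers. Deviations of same-numbered arrays correlated at -0.30 to 0.22 over the comparisons, which does not settle whether they shared a run. With the replicate block, no Aqp5 or Aqp1 call changed over all arrays or within genotype; with the block over all arrays the Aqp5 adjusted p was 0.00126 for 0g in treated Pthrp-/- TOs and 4.91e-12 for ablation in treated TOs at 1g, from limma.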
